A study of Mus musculus with 10 samples.

Results

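A group of 43 germline and meiosis genes was followed in mouse embryonic stem cells. The members were the rows of the deposited expression table whose gene name equals an entry of a fixed list of germline and meiosis names, and all 43 names were found among the 55401 genes of the table. Poly(A) RNA came from E14 cells, an embryonic stem cell line from a male blastocyst. The wild-type cells, labelled as not treated, gave 4 libraries in 2 numbered sets. The cells carrying the ANKRD11 Y347A mutation, introduced by CRISPR/Cas9 genome editing, gave 6 libraries in 3 numbered sets. Each set held 2 libraries. ANKRD11 is a nuclear ankyrin repeat protein with a role in transcription. What a set stands for (a clone, a culture or something else) is not in the labels, and p-values therefore reflect variation between sets that could be technical.

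Germline genes act in the cells that become eggs and sperm. RNA-binding proteins such as DAZL and DDX4 control the germ cell's messenger RNAs, piRNA proteins silence transposons, and during meiosis the synaptonemal complex holds paired chromosomes together while recombination exchanges DNA between them. In embryonic stem cells many of these genes are held at low levels by DNA methylation and by a variant Polycomb complex, PRC1.6, which contains E2F6 and the MGA and MAX proteins.

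Values are in TPM, a transcript abundance scaled by transcript length and library total, so the sequencing depth is unknown and no counting interval can be given. Each library summed to 1000000 TPM within rounding, and 12473 to 12812 genes reached 1 TPM in a library. Below, means are over set means with their SD (n = 2 for wild type, n = 3 for the mutant). Changes are mutant minus wild type on the log2(TPM + 1) scale with their SE, a scale that understates changes of low genes. The cells carried stem cell markers, with Pou5f1 between 1026 and 1271 TPM in the 10 libraries. Of 8 such markers, Nanog and Zfp42 fell and Esrrb rose (limma, adjusted p = 0.0067, 0.042 and 0.037), with 1 lower and 1 higher under either rescaling of the libraries. Markers of late male germ cells were at or near 0, with 5 of 8, among them Prm1 and Tnp1, listed at 0 in every library and a summed level of at most 0.09 TPM. Fibroblast feeder markers summed to between 2.38 and 5.38 TPM in wild-type and between 1.5 and 2.55 TPM in mutant libraries, with Dcn and Postn at 0 throughout. The largest part of each sum was Thy1, at 1.63 to 4.03 TPM in wild-type and 0.82 to 1.78 TPM in mutant libraries. Thy1 overlapped and did not pass (change -0.62 ± 0.19, limma adjusted p = 0.067). TPM values hold no base calls, so the mutation itself was not checked here.

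Most of the 43 genes were detected in these stem cells. Averaged over all libraries, at least 1 TPM was reached by 31 members, at least 5 TPM by 18 and at least 10 TPM by 10. The highest was Syce2, a central element protein of the synaptonemal complex, at 104 to 134 TPM. It was followed by the receptor tyrosine kinase Kit at 62.4 to 98.7 TPM, by the piRNA factor Tdrd12 at 36.2 to 55.4 TPM and by the testis alpha-tubulin Tuba3a at 15.7 to 58.9 TPM. The ranges of Kit and Tdrd12 did not overlap, whereas those of Tdrd12 and Tuba3a did. Of the other 12 members, 7 had a mean between 0.1 and 1 TPM, 5 lay below 0.1 TPM, and none was at 0 in every library.

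**Figure D1:**
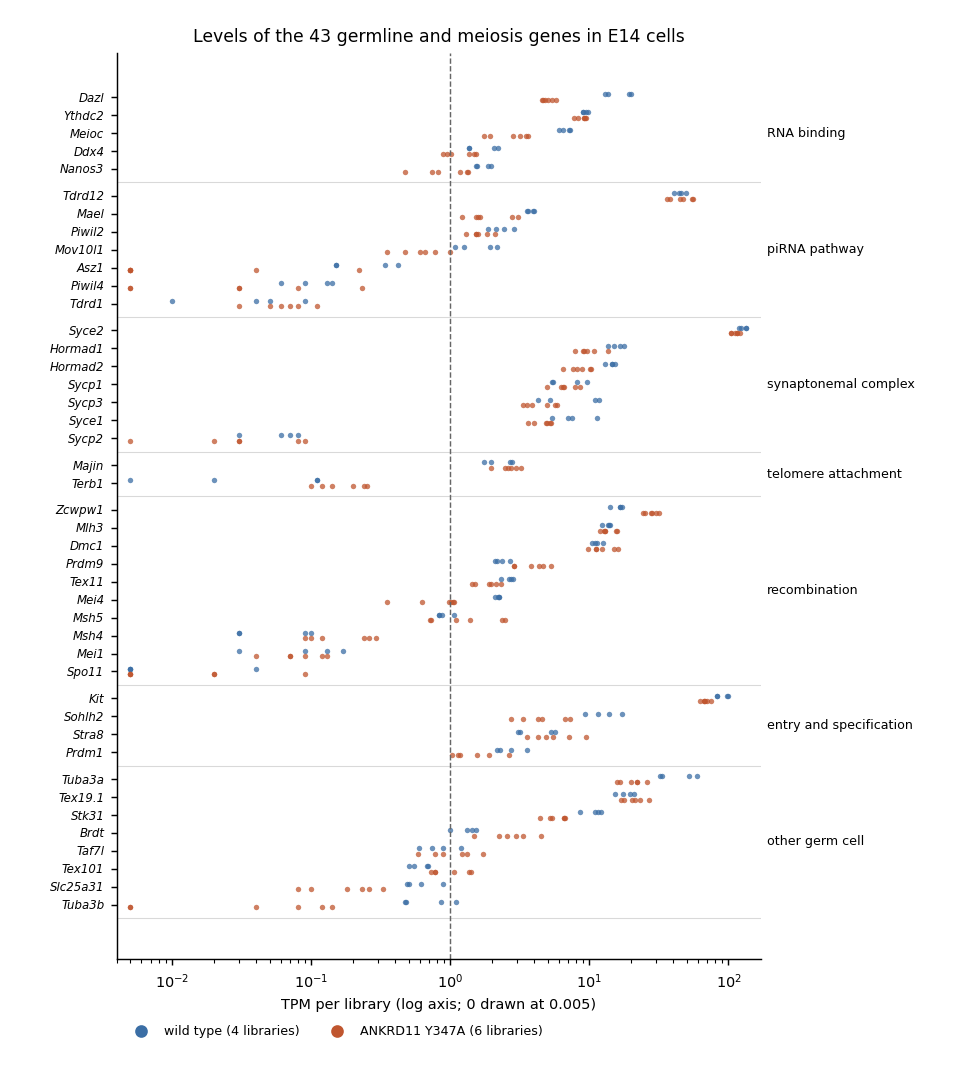
Level of each of the 43 members in every library, in TPM on a log axis (values of 0 are drawn at 0.005), grouped by function, with wild-type libraries in blue and ANKRD11 Y347A libraries in orange. The dashed line marks 1 TPM, the mean that the 31 tested members reached. Syce2 lies at the top at 104 to 134 TPM, while Spo11 is at or below 0.09 TPM in every library.

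The 12 untested members covered several functions. Spo11, the enzyme that makes the meiotic DNA breaks, was at 0 in 6 libraries and reached 0.09 TPM. Its partner for break formation Mei1 ranged from 0.03 to 0.17 TPM and Msh4, a crossover factor, from 0.03 to 0.29 TPM. The piRNA genes Tdrd1 (0.01 to 0.11 TPM), Piwil4 (0 to 0.23 TPM) and Asz1 (0 to 0.42 TPM) were equally low. Sycp2, a lateral element protein, stayed at or below 0.09 TPM, and Terb1, which joins telomeres to the nuclear envelope, at or below 0.25 TPM. Taf7l, a germ cell relative of a TFIID subunit, ranged from 0.58 to 1.71 TPM, the sperm surface gene Tex101 from 0.5 to 1.4 TPM, the germ cell ADP/ATP carrier Slc25a31 from 0.08 to 0.89 TPM and Tuba3b, another testis alpha-tubulin, from 0 to 1.1 TPM. Just inside the 1 TPM mean were Mov10l1, Msh5 and Nanos3, and just outside it Taf7l and Tex101. Of the 31 tested members, Mei4, Mov10l1 and Nanos3 averaged below 1 TPM in the mutant and passed this filter through their wild-type level, and Msh5 averaged below 1 TPM in the wild type and passed through its mutant level. A gene let in by the group where it is high had to differ, so their place in the counts that follow lends those counts no weight.

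Promoters of the members were read from RefSeq (GRCm38.p6) as windows from 250 bases before to 50 after the annotated start. The first listed window of each gene was used, and 38 of the 43 members had one. These members had a median of 17 CpG per window, against 7 over all 27025 promoters and 21 over 9400 promoters of tested genes. An E-box (CACGTG, the same on both strands), the letters that MGA and MAX recognise, was present in 11 of 38 windows (28.9%), against 7.24% of all promoters and 10.7% of those of tested genes. An E2F core (TCCCGC on either strand) was found in 42.1% of the member windows, 20.02% of all and 37.2% of those of tested genes, and the longer TTCCCGCC, which contains the core, in 15.8%, 2.24% and 4.61%. Among the 9 members that fell in the mutant, 2 held the E-box and 4 the E2F core, against 6 and 9 of 17 tested members with a window that did not pass. These are letter matches and not measured binding.

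The following 6 promoters are shown because they differ in these motifs. Dazl, Meioc, Stk31 and Hormad1 fell in the mutant, Hormad1 with overlapping libraries, Zcwpw1 rose, and Ddx4 did not pass. Each gives the 250 bases before the start, 5′ to 3′ on the gene's own strand, with E-boxes and E2F cores in capitals. The starts are those of RefSeq and can differ from the gene spans given below. The Meioc window lies inside that gene's span, and the Zcwpw1 window ends before its gene's start. Dazl lies on the minus strand with its window at chr17:50293621-50293870 and holds neither motif, as does Zcwpw1 (plus, chr5:137787081-137787330). Meioc (plus, chr11:102665335-102665584) holds 1 E2F core and Stk31 (plus, chr6:49395289-49395538) 1 E-box. Hormad1 (plus, chr3:95559427-95559676) holds 2 E-boxes and 1 E2F core, and Ddx4 (minus, chr13:112652311-112652560) 1 of each.
Dazl: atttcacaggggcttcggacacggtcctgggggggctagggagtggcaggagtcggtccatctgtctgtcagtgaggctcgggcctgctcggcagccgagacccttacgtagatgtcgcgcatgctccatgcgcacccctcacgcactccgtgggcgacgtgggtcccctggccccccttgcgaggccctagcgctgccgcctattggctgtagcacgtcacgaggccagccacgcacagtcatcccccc
Zcwpw1: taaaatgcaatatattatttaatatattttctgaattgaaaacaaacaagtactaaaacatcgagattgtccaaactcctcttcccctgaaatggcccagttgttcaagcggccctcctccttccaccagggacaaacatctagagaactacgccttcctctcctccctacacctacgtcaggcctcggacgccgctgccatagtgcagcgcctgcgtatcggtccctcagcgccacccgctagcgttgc
Meioc: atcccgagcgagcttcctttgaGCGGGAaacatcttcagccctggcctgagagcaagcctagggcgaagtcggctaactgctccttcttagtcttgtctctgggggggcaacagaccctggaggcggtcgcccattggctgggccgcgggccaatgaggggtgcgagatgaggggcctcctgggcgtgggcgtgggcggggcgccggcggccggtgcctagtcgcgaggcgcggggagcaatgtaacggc
Stk31: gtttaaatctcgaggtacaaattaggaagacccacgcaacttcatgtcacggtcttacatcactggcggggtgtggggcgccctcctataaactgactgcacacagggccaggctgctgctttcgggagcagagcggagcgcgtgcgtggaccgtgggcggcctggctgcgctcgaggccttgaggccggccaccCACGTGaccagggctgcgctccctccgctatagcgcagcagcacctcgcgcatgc
Hormad1: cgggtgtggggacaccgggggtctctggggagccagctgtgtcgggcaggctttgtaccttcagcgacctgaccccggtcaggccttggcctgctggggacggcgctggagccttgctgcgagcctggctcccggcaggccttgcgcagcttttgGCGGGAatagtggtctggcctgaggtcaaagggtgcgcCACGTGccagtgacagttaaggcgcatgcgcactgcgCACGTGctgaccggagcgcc
Ddx4: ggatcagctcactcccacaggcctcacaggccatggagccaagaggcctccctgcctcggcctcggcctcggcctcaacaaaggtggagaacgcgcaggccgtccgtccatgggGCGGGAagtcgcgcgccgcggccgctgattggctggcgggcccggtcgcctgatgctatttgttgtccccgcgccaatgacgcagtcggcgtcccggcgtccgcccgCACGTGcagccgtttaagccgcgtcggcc

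Tested members were more often lower than higher in the mutant. The members were chosen with earlier results of these data known, so the counts that follow give no independent support for a shift. Of 31, 9 fell and 1 rose at an adjusted p under 0.05 (limma on set means, Benjamini-Hochberg over 12797 genes), against 10.5% of all tested genes lower, 6.97% higher and 17.5% in either direction. Of the 27 members with at least 1 TPM in both genotypes, 8 fell and 1 rose, with a median change of -0.32. The 9 were Dazl, Sohlh2, Tuba3a, Meioc, Mei4, Stk31, Hormad2, Hormad1 and Kit, and the 1 that rose was Zcwpw1. The median change was -0.34 over the 31 members and -0.04 over all tested genes, and 21 members had a negative and 10 a positive change, where 54.7% of all genes had a negative one. All 6 mutant libraries lay below all 4 wild-type libraries for 12 members (19.4% of all genes) and above them for 2 members (12.4% of all genes). Among the 12 were Mei4, Mov10l1 and Nanos3, which were tested through their wild-type level and lend this count no weight. In bulk RNA, fewer cells expressing a gene and less RNA per cell cannot be told apart. Markers of the 2-cell-like state, a rare state of these cultures, summed over 9 genes to between 4.06 and 5.89 TPM in wild-type and between 1 and 3.68 TPM in mutant libraries, with none of the 9 at 0 in every library. The 1 that was tested, Zscan4f, had overlapping libraries and did not pass (change -0.50 ± 0.26, limma adjusted p = 0.221). Primitive endoderm markers summed over 8 genes to between 26.3 and 31.3 TPM in wild-type and between 32.9 and 44.0 TPM in mutant libraries, nearly all of it the laminin chain Lama1. Lama1 rose from 28.0 ± 1.63 to 36.8 ± 3.28 TPM (change 0.38 ± 0.10, limma adjusted p = 0.042) and lost its call when any of the 5 sets was left out, while the other 7 (Gata4, Gata6, Sox17, Sox7, Foxa2, Pdgfra and Dab2) were below 1 TPM in every library. The part of these markers in the differences was not tested.

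**Figure D2:**
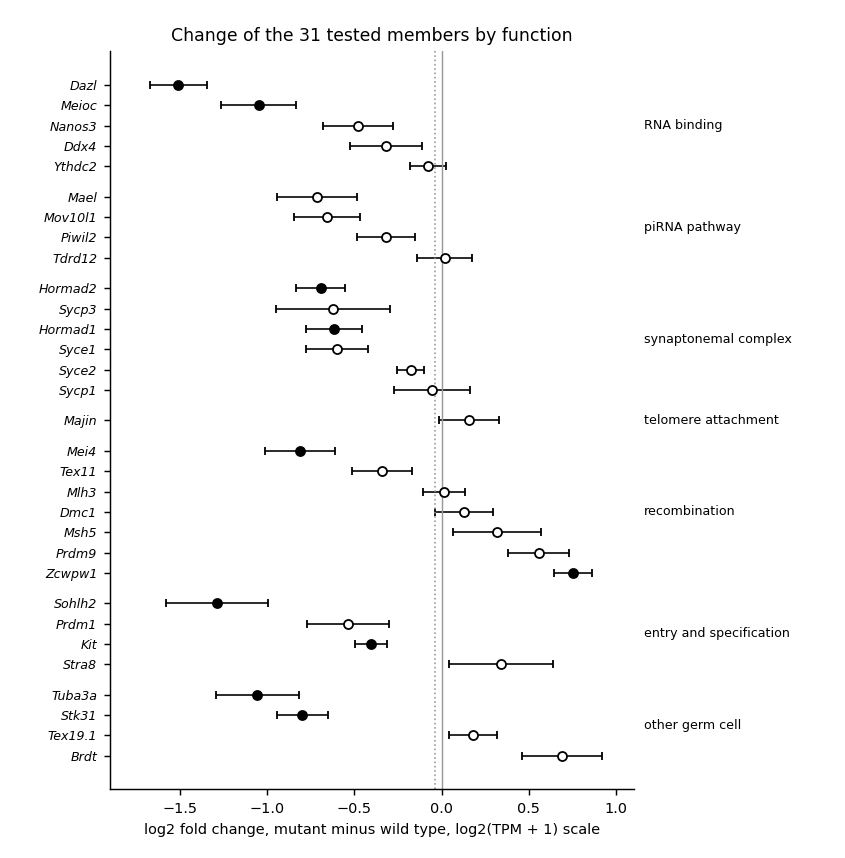
Change of the 31 tested members (mutant minus wild type, log2(TPM + 1) scale), as the estimate with its SE, grouped by function. Filled points passed an adjusted p under 0.05 and open points did not, and the dotted line is the median of all tested genes (-0.04). Dazl lies farthest left at -1.51 and Zcwpw1 is the filled point to the right of 0, at 0.75.

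The balance of directions depended on scaling for all genes. Of the genes that passed, 60.2% were lower, and this share was 50.02% after median-of-ratios rescaling, 48.5% after quantile normalization and 52.9% after a GC correction. The members gave 8 lower and 1 higher, 8 lower and 2 higher, and 6 lower and 2 higher under these settings. Kit lost its call under all of them (adjusted p = 0.053 and 0.068 under the rescalings), and Mei4 and Hormad1 under the GC correction (adjusted p = 0.055 and 0.115). Prdm9 was the second higher member under quantile normalization and the GC correction.

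Among the 5 germ cell RNA-binding genes, all tested, 2 fell and 3 did not pass (median change -0.48). That median is the value of Nanos3, which was tested through its wild-type level. Dazl encodes a binder of messenger RNA that germ cells need to develop, and lies at chr17:50279395-50293636 on the minus strand (mm10). It was at 13.6 and 12.96 TPM in wild-type set 1, at 19.9 and 19.18 in set 2, at 5.76 and 4.64 in mutant set 1, at 5.40 and 4.54 in set 2 and at 4.82 and 5.02 in mutant set 3. Every mutant library was below every wild-type library, and the mutant sets differed less from each other than the wild-type sets did. The mean fell from 16.4 ± 4.45 to 5.03 ± 0.149 TPM, a change of -1.51 ± 0.16 (limma, adjusted p = 0.0051).

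Meioc, which works with the helicase YTHDC2 to let germ cells enter and stay in meiosis, lies at chr11:102663716-102682237. Its wild-type libraries were at 6.04 and 6.5 TPM (set 1) and 7.24 and 7.13 (set 2), and its mutant libraries at 3.19 and 2.81, 1.94 and 1.74, and 3.63 and 3.51 (sets 1 to 3). The genotypes did not overlap, and mutant set 2 was the lowest. The mean fell from 6.73 ± 0.647 to 2.80 ± 0.882 TPM (change -1.05 ± 0.21, limma adjusted p = 0.022). Its partner Ythdc2 was at 9.35 ± 0.431 and 8.83 ± 0.347 TPM, a change of -0.08 ± 0.10 that did not pass. Ddx4, the germ cell RNA helicase also known as mouse vasa homologue, was at 1.76 ± 0.544 and 1.20 ± 0.296 TPM with overlapping libraries (limma, adjusted p = 0.308). Nanos3, which protects primordial germ cells, was at 1.73 ± 0.269 and 0.977 ± 0.305 TPM. Its libraries did not overlap but it did not pass (limma, adjusted p = 0.140).

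None of the 4 tested piRNA genes passed (limma, with 2 of 4 at an unadjusted p under 0.05), and their median change was -0.49. The share of all tested genes at that unadjusted p was not counted, so 2 of 4 has no background. The median lies between the changes of Mov10l1, tested through its wild-type level, and Piwil2. Mael, a factor of transposon silencing in germ cells, was at set means of 3.76 and 3.75 TPM in wild-type and 2.91, 1.38 and 1.61 TPM in mutant sets (change -0.72 ± 0.23, limma adjusted p = 0.073). Mov10l1, the helicase that acts on piRNA precursors, was at set means of 1.51 and 1.70 TPM in wild-type and 0.880, 0.505 and 0.535 TPM in mutant sets (change -0.66 ± 0.19, limma adjusted p = 0.056). For both genes all mutant libraries were below all wild-type libraries. Piwil2, the PIWI protein MILI, had overlapping libraries and a change of -0.32 ± 0.17. Tdrd12, a Tudor domain protein of piRNA biogenesis, was the highest of the class at 45.0 ± 3.65 and 46.0 ± 8.88 TPM (change 0.02 ± 0.16). Its 3 mutant sets, at 45.9, 37.1 and 54.9 TPM, differed from each other (limma F test, adjusted p = 0.0039).

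Of 6 tested synaptonemal complex and axis genes, 2 fell and 4 did not pass (median change -0.61). The 2 were the paralogues Hormad1 and Hormad2, HORMA domain proteins that coat unpaired chromosome axes. Hormad2 (chr11:4345814-4441105) was at 14.6 and 14.5 TPM in wild-type set 1, 15.4 and 12.8 in set 2, 6.48 and 7.57 in mutant set 1, 8.85 and 10.1 in set 2 and 10.3 and 8.11 in mutant set 3. The groups did not overlap. It fell from 14.3 ± 0.329 to 8.56 ± 1.34 TPM (change -0.69 ± 0.14, limma adjusted p = 0.022). Hormad1 (chr3:95559677-95587671) was at 14.99 and 13.7 TPM in wild-type set 1, 17.6 and 16.5 in set 2, 9.61 and 8.98 in mutant set 1, 9.11 and 7.88 in set 2 and 10.8 and 13.7 in mutant set 3. The highest mutant library, from set 3, just exceeded the lowest wild-type library, from set 1. It fell from 15.7 ± 1.91 to 10.01 ± 1.97 TPM (change -0.61 ± 0.16, limma adjusted p = 0.043).

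Syce1, a central element protein, did not overlap between genotypes but did not pass, with 7.78 ± 1.93 and 4.66 ± 0.730 TPM (change -0.60 ± 0.18, limma adjusted p = 0.060). Syce2, its partner in the central element, was at 127 ± 1.30 and 112 ± 7.27 TPM (change -0.18 ± 0.08, limma adjusted p = 0.151). Sycp3, a lateral element protein, differed most between the wild-type sets of all tested members, with set means of 4.73 and 11.3 TPM, and its mutant set means were 5.78, 3.44 and 4.40 TPM (change -0.62 ± 0.33, limma adjusted p = 0.223). Its exons share 660 bases with those of Chpt1 on the opposite strand, a gene at a mean of 14.01 TPM, and the sources used here do not say whether counting used strand, so reads of the pair may not be told apart. Sycp1, the transverse filament protein, was at 7.19 ± 2.47 and 6.77 ± 1.33 TPM (change -0.06 ± 0.22). Majin, the tested gene of telomere attachment, was at 2.30 ± 0.619 and 2.66 ± 0.284 TPM (change 0.16 ± 0.17, limma adjusted p = 0.553).

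The 7 tested recombination genes went both ways, with 1 lower, 1 higher and a median change of 0.13. The median was -0.02 without mutant set 3 and 0.25 after the GC correction, and in both of these fits the lower member, Mei4, lost its call. Zcwpw1, a reader of the histone marks that PRDM9 places at recombination hotspots, lies at chr5:137787798-137822621 and was the member that rose. It was at 17.1 and 16.6 TPM in wild-type set 1, 16.6 and 14.1 in set 2, 31.8 and 28.0 in mutant set 1, 24.1 and 25.3 in set 2 and 27.5 and 30.1 in mutant set 3. All mutant libraries were above all wild-type ones. The mean rose from 16.1 ± 1.03 to 27.8 ± 2.75 TPM (change 0.75 ± 0.11, limma adjusted p = 0.0098). Its exons share 468 bases with Pilra on the opposite strand, which was at a mean of 0.038 TPM. Prdm9 itself, the histone methyltransferase, was at set means of 2.27 and 2.40 TPM in wild-type and 3.60, 3.35 and 4.97 TPM in mutant sets. Its libraries did not overlap, but its change of 0.55 ± 0.18 did not pass (limma, adjusted p = 0.071).

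Mei4, a protein of the break-forming machinery (chr9:81863670-82206007), was at 2.21 and 2.23 TPM in wild-type set 1, 2.24 and 2.11 in set 2, 0.35 and 0.62 in mutant set 1, 1.06 and 0.98 in set 2 and 1.01 and 1.05 in mutant set 3. The wild-type libraries were tightly grouped and mutant set 1 was the lowest. It fell from 2.20 ± 0.0318 to 0.845 ± 0.312 TPM (change -0.81 ± 0.20, limma adjusted p = 0.038). Since its mutant mean lay below the filter, it was tested through its wild-type level, and with no filter it did not pass (limma, adjusted p = 0.090). The strand exchange protein Dmc1 (11.3 ± 0.849 and 12.6 ± 2.63 TPM) and the crossover nuclease subunit Mlh3 (13.5 ± 0.725 and 13.7 ± 1.73 TPM) had overlapping libraries and changes of 0.13 and 0.01. Msh5, partner of Msh4, was at 0.900 ± 0.0707 and 1.46 ± 0.649 TPM, and Tex11, an X-linked crossover factor, at 2.63 ± 0.205 and 1.87 ± 0.381 TPM. Neither passed (limma, adjusted p = 0.409 and 0.202).

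Of 4 genes of germ cell entry and specification, 2 fell and 2 did not pass (median change -0.47). Sohlh2, a basic helix-loop-helix factor of early germ cell differentiation (chr3:55182028-55209957), was at 9.24 and 11.6 TPM in wild-type set 1, 17.0 and 13.8 in set 2, 4.58 and 4.27 in mutant set 1, 2.75 and 3.35 in set 2 and 7.22 and 6.71 in mutant set 3. The genotypes did not overlap, and mutant set 3 was the nearest to wild type. It fell from 12.9 ± 3.56 to 4.81 ± 1.99 TPM (change -1.29 ± 0.29, limma adjusted p = 0.029). Kit, the receptor for stem cell factor on migrating germ cells and other stem cells (chr5:75574916-75656722), was at 82.5 and 82.6 TPM in wild-type set 1, 98.7 and 96.9 in set 2, 74.5 and 66.3 in mutant set 1, 66.3 and 70.0 in set 2 and 67.3 and 62.4 in mutant set 3. It fell without overlap from 90.2 ± 10.8 to 67.8 ± 2.80 TPM (change -0.40 ± 0.09, limma adjusted p = 0.030), the smallest change among the 10 members that passed. Stra8, which retinoic acid induces at meiotic entry, was at set means of 3.12 and 5.47 TPM in wild-type and 8.27, 3.92 and 5.17 TPM in mutant sets. Prdm1, which encodes BLIMP1 and specifies primordial germ cells, was at 2.69 ± 0.661 and 1.57 ± 0.618 TPM. Both overlapped and neither passed (limma, adjusted p = 0.449 for Stra8 and 0.152 for Prdm1).

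The remaining 4 tested members gave 2 that fell and 2 that did not pass (median change -0.31). Tuba3a (chr6:125278274-125286042) was at 33.3 and 32.3 TPM in wild-type set 1, 58.9 and 52.4 in set 2, 25.8 and 22.1 in mutant set 1, 16.6 and 15.7 in set 2 and 19.9 and 21.98 in mutant set 3. The groups did not overlap, and wild-type set 2 was the highest. It fell from 44.2 ± 16.2 to 20.3 ± 3.95 TPM (change -1.06 ± 0.24, limma adjusted p = 0.029). Over its longest open reading frame of 1353 bases it is 97.0% identical to that of Tuba3b, so the split of reads between the copies is uncertain. Tuba3b, at 0.47 to 1.1 TPM in wild-type and 0 to 0.14 TPM in mutant libraries, was too low for the test. With no filter on level it had adjusted p = 0.063 (limma). Slc25a31, also without overlap, had a change of -0.44 and adjusted p = 0.048 there, the lone one of the 12 low members to pass. Tex101 did not overlap in the other direction, at 0.5 to 0.69 TPM in wild-type and 0.72 to 1.4 TPM in mutant libraries. Its change with no filter was 0.32 and did not pass (limma, adjusted p = 0.172).

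Stk31, a germ cell kinase-like protein with a Tudor domain (chr6:49395604-49469501), was at 11.1 and 12.03 TPM in wild-type set 1, 8.60 and 11.5 in set 2, 4.40 and 5.34 in mutant set 1, 6.56 and 6.64 in set 2 and 5.22 and 6.59 in mutant set 3. The genotypes did not overlap. It fell from 10.8 ± 1.05 to 5.79 ± 0.871 TPM (change -0.80 ± 0.15, limma adjusted p = 0.017). Tex19.1, a mammal-specific protein of germ cells and placenta, was at 18.3 ± 1.17 and 20.98 ± 3.42 TPM with overlapping libraries (change 0.18 ± 0.14). Brdt, the testis bromodomain protein, was at set means of 1.22 and 1.42 TPM in wild-type and 2.93, 1.86 and 3.72 TPM in mutant sets. Its libraries overlapped, and its change of 0.69 ± 0.23 did not pass (limma, adjusted p = 0.081). Brdt passed without mutant set 2 (change 0.89, limma adjusted p = 0.026), its mutant set nearest to wild type. It passed with no other set left out.

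**Figure D3:**
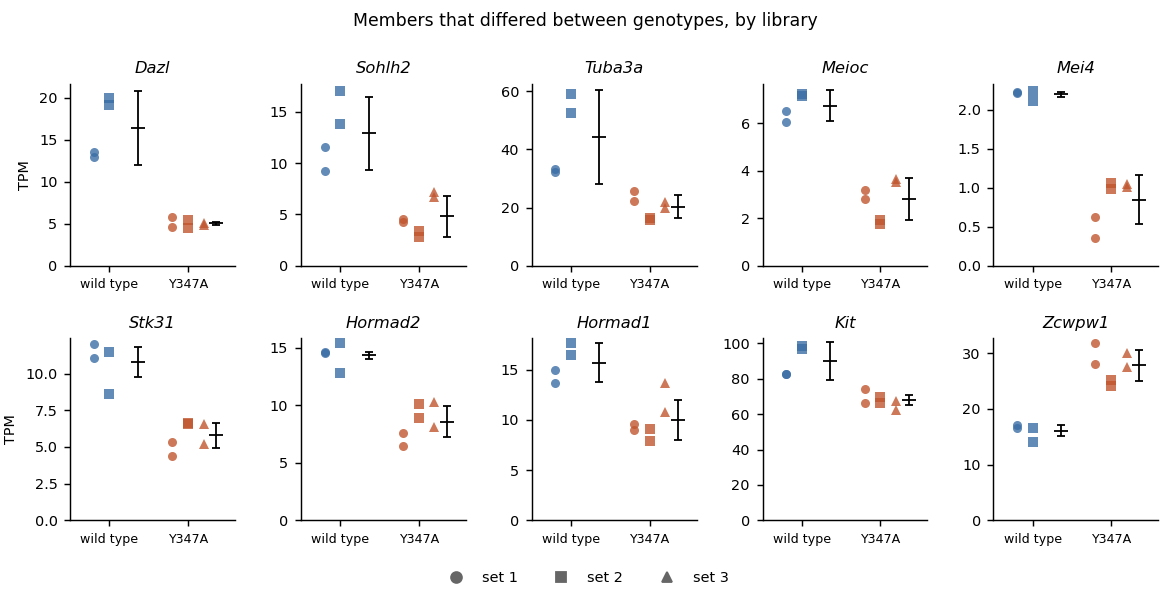
TPM of the 10 members that passed, by library (circles set 1, squares set 2, triangles set 3), on linear axes from 0, with wild type in blue and ANKRD11 Y347A in orange. Black bars are the mean and SD over set means (2 wild-type, 3 mutant). Zcwpw1 rises from 16.1 to 27.8 TPM, and in Hormad1 a triangle at 13.7 TPM reaches the lowest wild-type libraries.

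Members also varied within a genotype. Over libraries, 10 of 31 members differed among the 3 mutant sets (limma F test, adjusted p under 0.05, against 19.6% of all tested genes), namely Sycp3, Mlh3, Dmc1, Sohlh2, Sycp1, Stra8, Tdrd12, Mael, Meioc and Tuba3a. Between the wild-type sets, 2 members were higher in set 2 (1.12% of all genes) and 1 lower (1.63% of all genes). Those higher were Sycp3 by 1.11 ± 0.13 (limma adjusted p = 0.0080) and Tuba3a by 0.74 ± 0.09 (limma adjusted p = 0.0095) on the log2 scale, and Sycp1 was lower (-0.62 ± 0.12, limma adjusted p = 0.036). Dazl differed by 0.53 ± 0.11 between the wild-type sets and did not pass (limma adjusted p = 0.051). Of the 10 members that passed between genotypes, 3 differed among mutant sets, 1 between wild-type sets and 7 inside neither genotype. The median member change against wild type was -0.28, -0.43 and -0.33 in mutant sets 1, 2 and 3.

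The calls rested on the few sets. Without wild-type set 1, Dazl was the member still called (change -1.77, limma adjusted p = 0.030), when 196 of all genes passed. Without wild-type set 2 no member passed, when 42 of all genes did, and Dazl had a change of -1.25 and adjusted p = 0.057. Without mutant set 1, 3 members were lower and 1 higher, beside 413 and 241 of all genes. Leaving out set 2 gave 7 and 2, beside 1388 and 1005, and leaving out set 3 gave 4 and 1, beside 605 and 315. Over these 5 fits the median change ranged from -0.58 to -0.35 for the RNA-binding members and from -0.55 to -0.42 for the piRNA members. Those medians include Nanos3 and Mov10l1, which were tested through their wild-type level. The range was -0.70 to -0.38 for the synaptonemal complex and axis, -0.62 to -0.32 for entry and specification and -0.42 to -0.22 for the other germ cell proteins. Over 15 fits that each left out a set or a library, Dazl kept its call in 14, Zcwpw1 in 13, Meioc, Hormad2 and Sohlh2 in 12, Kit and Stk31 in 11, Mei4 and Tuba3a in 10 and Hormad1 in 5. No member that passed changed direction in any of these fits. For each of them but Hormad1 the libraries of the genotypes did not overlap. Leaving out sets or libraries could not reverse those changes, so their kept direction lends no weight.

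Other genes of the same processes gave context. None of 5 tested further RNA-binding genes (of 9 listed) passed, with 1 at an unadjusted p under 0.05 (limma). The smallest p were those of Dnd1, a partner of NANOS proteins, at 8.56 ± 0.258 and 11 ± 1.38 TPM (limma, adjusted p = 0.116), and the Y-box protein Ybx2 (adjusted p = 0.354). Likewise none of 6 tested further piRNA genes (of 13) passed, with 1 at an unadjusted p under 0.05. The share of all tested genes at that unadjusted p was not counted, so neither count of 1 has a background. Gpat2 was at 8.01 ± 0.721 and 11.9 ± 1.85 TPM (limma, adjusted p = 0.055) and Exd1 at 1.49 ± 0.237 and 2.03 ± 0.387 TPM (adjusted p = 0.287). The list medians were 0.11 and 0.22. That of the RNA-binding list was -0.15 without wild-type set 1, -0.02 without mutant set 1 and 0.29 without wild-type set 2. Its sign therefore rested on single sets. That of the piRNA list stayed positive whichever set was left out. It ranged from 0.05 without mutant set 3 to 0.34 without mutant set 2.

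Of 5 tested further axis genes (of 8 listed), 1 fell and 2 rose. The meiotic cohesin subunits Stag3 (1.004 ± 0.14) and Rec8 (0.82 ± 0.16) rose and Smc1b (-0.87 ± 0.21) fell, a call that Smc1b lost after the GC correction. None of the 5 passed when wild-type set 1 or wild-type set 2 was left out. Of 11 tested further recombination genes (of 18 listed), 5 fell and 3 rose (none without wild-type set 2, and 1 lower without wild-type set 1). Rec114, which works with MEI4 in break formation, was at 25.5 and 26.4 TPM in wild-type set 1, 36.2 and 34.1 in set 2, 10.4 and 12.3 in mutant set 1, 9.35 and 12.7 in set 2 and 14 and 12.7 in mutant set 3. Like Mei4 it did not overlap, and it fell from 30.5 ± 6.49 to 11.9 ± 1.27 TPM (change -1.29 ± 0.15, limma adjusted p = 0.0062). Hells, a chromatin remodeller, fell by 0.70 and the exonuclease Exo1 by 0.54 on the log2 scale, and both also act outside meiosis.

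Genes listed around the repression of germline genes were lower or did not pass. Their list counts the demethylases Tet1 and Tet2 too, so it is not one of repressors alone. All 25 listed genes of PRC1.6, H3K9 methylation and DNA methylation were tested, 7 fell and none rose, beside 10.5% of all tested genes lower, with a median change of -0.27 that was -0.15 after the GC correction. Among the 7, the 3 with the largest changes were the de novo DNA methyltransferase Dnmt3a (8.19 ± 1.04 to 3.68 ± 1.001 TPM), the PRC1.6 subunit Pcgf6 (64.2 ± 1.38 to 44.9 ± 2.13 TPM) and the chromodomain protein Cbx1 (192 ± 14.2 to 139 ± 7.82 TPM). Under median-of-ratios rescaling 4 of the 25 were lower, and under quantile normalization and the GC correction 3. None of them passed when wild-type set 1 or wild-type set 2 was left out, and leaving out mutant set 1, 2 or 3 gave 2, 9 and 3 lower. Dnmt3l, a cofactor of de novo methylation, was at 110 ± 33.0 and 175 ± 37.4 TPM, a change of 0.68 ± 0.22 that did not pass (limma, adjusted p = 0.080), and the demethylases Tet2 and Tet1 had changes of -0.50 each that did not pass (limma, adjusted p = 0.073 and 0.058). E2f6, which binds the E2F letters, was at 11.5 ± 0.0283 and 11.8 ± 1.30 TPM, Mga at 55.9 ± 10.7 and 46.0 ± 5.24 TPM and Max at 80.8 ± 19.8 and 74.6 ± 16.1 TPM, and these 3 did not pass. Of 8 primordial germ cell specification genes, 3 fell and none rose (2 without wild-type set 1 and 1 without wild-type set 2). Dppa3, a maternal factor of germ cells and early embryos, fell from 22.1 ± 0.318 to 3.58 ± 0.348 TPM, and the membrane proteins Ifitm3 (-0.74 ± 0.12) and Ifitm1 (-0.57 ± 0.11) fell too.

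**Figure D4:**
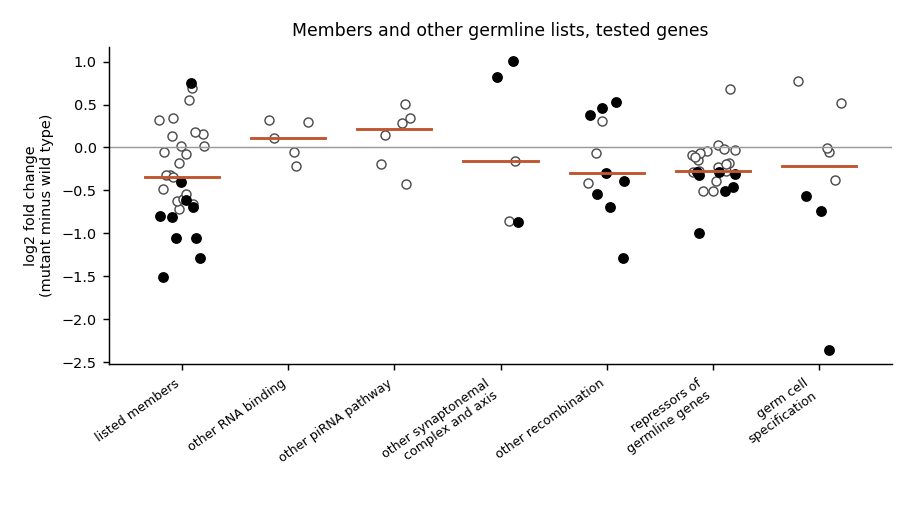
Change of each tested gene (mutant minus wild type, log2(TPM + 1) scale) in the listed members and in 6 other germline lists. Each point is a gene, filled where adjusted p was under 0.05, and orange bars are list medians, -0.34 for the members. The median of other RNA-binding genes (0.11) changed sign when single sets were left out. That of other piRNA genes (0.22) then ranged from 0.05 to 0.34. The lowest point is Dppa3 in the specification list.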

How the data were processed

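Poly(A) RNA libraries were made with the VAHTS Universal V8 kit, per the labels' protocols. Trim Galore, STAR, RSEM, DESeq2 and build mm10 are named in the submitters' processing notes; for versions, annotation and strand setting the sources used here give nothing. TPM values were deposited by the authors as a table with 2 decimals, which holds no depth, and 0 of its sample columns were left without a sample. Gene coordinates came from GENCODE M21, which held 55141 of the 55401 gene IDs.

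Values of log2(TPM + 1) were averaged within each set, and 2 wild-type were compared with 3 mutant set means by limma 3.58.1 (R 4.3.3) with a mean-variance trend, two-sided, for the 12797 genes that averaged at least 1 TPM, with Benjamini-Hochberg adjustment over all of them and a threshold of 0.05. There were 3 residual and 4.011 prior degrees of freedom. Differences between sets of a genotype came from a limma fit of 5 sets over 10 libraries, whose error is that between libraries of a set. No pair of libraries held identical values.

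The members and lists were chosen with earlier results of these data known. Members that passed are given in every library, other tested members by set means or mean and SD, and untested ones by their range. For other lists, up to 3 genes that passed are named by size of change, or the 2 with the smallest p where none did; E2f6, Mga, Max, Dnmt3l, Tet1, Tet2 and the stem cell markers were named after their values were seen. In the lists, 3 names (Top6bl, Six6os1 and Iho1) matched no row and were not analysed here. Overlaps and open reading frames were computed with Python 3.11.15, pandas 2.3.3 and Biopython 1.88, and the fit was tested on simulated data. Alternatives were a pseudocount of 0.1, other filters, 2 rescalings, a lowess GC correction (span 0.3), other designs and leaving out each set and library. Figures used matplotlib 3.10.9.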

Additional observations from a re-analysis of the deposited data

Results flagged for a closer look

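The gap of a sample to its nearest neighbour, relative to the range, was examined in 62 groups of member values, and chance flags about 1 in 20 groups. It was large in 1 group. For Zcwpw1, the second library of wild-type set 2 was at 14.1 TPM, while the other wild-type libraries lay between 16.6 and 17.1 TPM (gap 0.841 of the range). Every mutant library was at 24.1 TPM or higher, and Zcwpw1 kept its call without that library.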

How the results depend on the processing

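No member that passed reversed its direction under any alternative. For each of them but Hormad1 the libraries did not overlap between genotypes. Another pseudocount, filter or design, or leaving out samples, could therefore not reverse those changes. The median change of tested members was -0.48 with a pseudocount of 0.1 and -0.18 with no filter. With no filter 809 of 26268 genes passed, 559 lower and 250 higher, and 2 members were lower and 1 higher among 43. With the 10 libraries as single samples, 5269 genes passed (3103 lower and 2166 higher), with 16 members lower and 3 higher. With the set as a random block 3398 genes passed (2063 lower and 1335 higher), with 10 members lower and 1 higher. An adjusted p under 0.05 together with a log2 fold change of at least 1 in size was met by 299 genes (193 lower and 106 higher), 4 members lower and 0 higher. Quantile normalization and the GC correction each gave 2 members higher. Set numbers are shared between genotypes, but with correlations of -0.16 and -0.09 between same-numbered sets and 2 pairs they were not taken to pair samples. With the set number as a replicate block 571 genes passed (362 lower and 209 higher), 3 members lower and 1 higher (Dazl, Meioc, Sohlh2 and Zcwpw1). The library number as a replicate block gave 3165 genes (1931 lower and 1234 higher), 10 members lower and 1 higher. Leaving out a set or a library gave 42 to 2393 genes, 0 to 10 members lower, 0 to 2 higher and a median of -0.42 to -0.28. Members differing between wild-type sets numbered 5 at a mean of at least 5 TPM, 6 after median-of-ratios rescaling and 5 after quantile normalization. The shares of all genes under these settings are not given here, so these counts have no background. TPM carries no depth, so changes of low members cannot be given a counting error.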

Other observations

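Some germline genes outside the members were too low for the test and are given as values, singled out after these were seen. Spata22, a recombination factor, was at 0.95 to 1.95 TPM in wild-type and 0.19 to 0.71 TPM in mutant libraries, and Rnf212, a crossover regulator, at 0.09 to 0.43 and 0 to 0.09 TPM. Figla, a transcription factor of oocytes, was listed at 0 in the 4 wild-type libraries and was at 0.12 to 0.47 TPM in the 6 mutant libraries. Boll, a relative of Dazl, was at 1.08 to 1.59 TPM in wild-type libraries, and at 0.09 and 0.08 TPM in mutant set 3 against 0.5 to 1.15 TPM in mutant sets 1 and 2. The summed level of the 8 oocyte markers listed, Figla included, was 5.44 to 9.54 TPM in wild-type and 6.35 to 10.01 TPM in mutant libraries, most of it Zp3.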
